A study of Mus musculus with 8 samples.

Results

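The core loop of the circadian clock was examined through 10 genes, Arntl, Clock, Npas2, Nr1d1, Nr1d2, Per1, Per2, Per3, Cry1 and Cry2, in sorted esophageal epithelial cells of the mouse. The genes were chosen by name from the 55276 gene symbols of the count table, and all 10 were among the 17344 that passed the filter on low counts. They were taken up because Npas2 and Arntl had been seen to be lower, and Clock and Per3 higher, in the Cyto-ID High fraction of these libraries. The High against Low values of the 10 genes are therefore given as a description, without a test.

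The cells came from 2 female and 2 male C57BL6 mice of 14 to 15 weeks, named Female1, Female2, Male1 and Male2, for which no treatment or altered allele is given. Integrin-b1+ cells that excluded DAPI were sorted from each animal into a Low and a High fraction of Cyto-ID staining (Cyto-ID labels autophagic vesicles). The 8 libraries, 4 per fraction, were sequenced in bulk and held 26285150 to 29301054 counts. The time of day at which the animals were killed and what the numbers 1 and 2 in their names stand for are not given in the sources used here.

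The circadian clock is a transcriptional feedback loop that runs in most cells. ARNTL, also called BMAL1, pairs with CLOCK or with its paralogue NPAS2 and activates genes through E-box sequences, among them the Per, Cry and Nr1d genes. PER and CRY proteins then repress the activators, while NR1D1 and NR1D2 (REV-ERB alpha and beta) repress Arntl, Npas2 and other genes against the ROR activators. In a cycling tissue the Nr1d, Per and Dbp transcripts peak close together, and those of Arntl and Npas2 peak in antiphase to them.

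The fractions differed in much besides the clock. Basal keratinocyte markers summed to 22663 to 27040 CPM (counts scaled to a common library size) in Low and to 2912 to 4636 CPM in High, with all 12 genes of the list lower in High past an edgeR adjusted p of 0.05. Suprabasal markers summed to 10066 to 27476 CPM in Low and 148356 to 250273 CPM in High, with 10 of 12 higher. In bulk RNA, fewer cells of a type and less RNA per cell cannot be told apart. The High libraries of Male2 and Female2 stood apart, with 22208 and 24820 genes detected against at least 26282 in the other libraries. Their summed leukocyte markers were 28.8 and 48.5 CPM, against 88.5 to 122 CPM in the High libraries of Female1 and Male1. Fibroblast markers summed to 51.4 and 203 CPM in Male2 and Female2 against 448 to 623 CPM, endothelial markers to 6.12 and 17.9 against 33.8 to 53.1 CPM, and muscle markers to 5.50 and 23.2 against 45.4 to 67.3 CPM. Female2 carried 11 gastric transcripts at a sum of 19.8 CPM in Low and 117 CPM in High, where the other libraries had at most 1.39 CPM. Of the leukocyte list 2 of 9 genes tested were higher in High, of the fibroblast and muscle lists 1 of 10 each was lower, and of the endothelial list none passed (edgeR adjusted p under 0.05). Their sums in Low were 61.2 to 98.4, 418 to 654, 45.0 to 70.3 and 26.001 to 43.5 CPM, and no marker of any list was at 0 in all libraries. The part of these differences in the clock gene values was not tested.

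The activators separated by fraction under TMM scaling (trimmed mean of M values). With that scaling Arntl and Npas2 were lower and Clock was higher in every High library than in every Low library. These were the 3 of 10 members without overlap between the fractions, a property of 48.6% of all genes tested (higher 23.6%, lower 24.9%), and nothing is read from the count. Of all genes tested 48.7% passed an edgeR adjusted p of 0.05 between the fractions. Npas2 (chromosome 1, 39193731 to 39363236, plus strand, GRCm38) stood at 43.0, 36.9, 48.0 and 29.5 CPM in the Low libraries of Female1, Female2, Male1 and Male2, and at 9.30, 8.97, 7.78 and 9.21 CPM in their High libraries. The fitted log2 fold change of Npas2 was −2.16 (SE 0.18), and the difference within an animal ran from −1.67 in Male2 to −2.61 in Male1. The 4 High libraries lay close together, whereas the Low libraries ranged more widely.

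Arntl (chromosome 7, 113207465 to 113314126, plus strand), which encodes the obligate partner in the activating pair, had 79.4, 87.9, 83.7 and 60.6 CPM in the Low libraries of Female1, Female2, Male1 and Male2. In their High libraries it had 37.8, 34.4, 30.2 and 32.9 CPM. The fitted log2 fold change was −1.20 (SE 0.14), and all 4 animals had less Arntl in High. Clock (chromosome 5, 76209868 to 76304792, minus strand) went the other way, with 143, 112, 135 and 111 CPM in Low and 199.96, 241, 231 and 209 CPM in High in the same order of animals. Its fitted log2 fold change was 0.81 (SE 0.15). When the libraries were scaled by total counts only, which lowers the median log2 fold change of all genes by 0.55, these changes were −2.72 for Npas2, −1.77 for Arntl and 0.25 for Clock. Clock then overlapped between the fractions, with 4058 counts among 28636682 in High Male2 and 4646 among 26285150 in Low Female1.

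The 2 partners of ARNTL can be compared per length, a ratio that does not depend on how libraries are scaled. Of the summed reads per kilobase of Npas2 and Clock, Npas2 made up 46.2, 48.5, 50.4 and 43.3% in the Low libraries of Female1, Female2, Male1 and Male2. In the High libraries it made up 11.8, 9.65, 8.80 and 11.2%. Per length, Clock and Npas2 were thus near parity in Low, and Clock was in large excess in High. The parity rests on the exon lengths used, 13727 bases for Clock and 4791 for Npas2, which join all annotated exons. Without division by length, the Low means were 125 CPM for Clock and 39.3 CPM for Npas2. The sum of both was 17.3 ± 2.7 RPKM (CPM per kilobase of exon) in Low and 17.9 ± 1.3 in High (SD, n = 4 each), a difference smaller than the spread between libraries under this scaling. Unlike the share, the sum depends on the scaling: by total counts only, an alternative added after the data were seen, it was 21.1 ± 3.4 RPKM in Low and 14.8 ± 2.2 RPKM in High (SD, n = 4 each). Arntl fell short of this sum in both fractions. The ratio of the summed partner RPKM to the Arntl RPKM was 1.69 ± 0.22 in Low and 4.01 ± 0.56 in High (SD, n = 4 each).

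**Figure D1:**
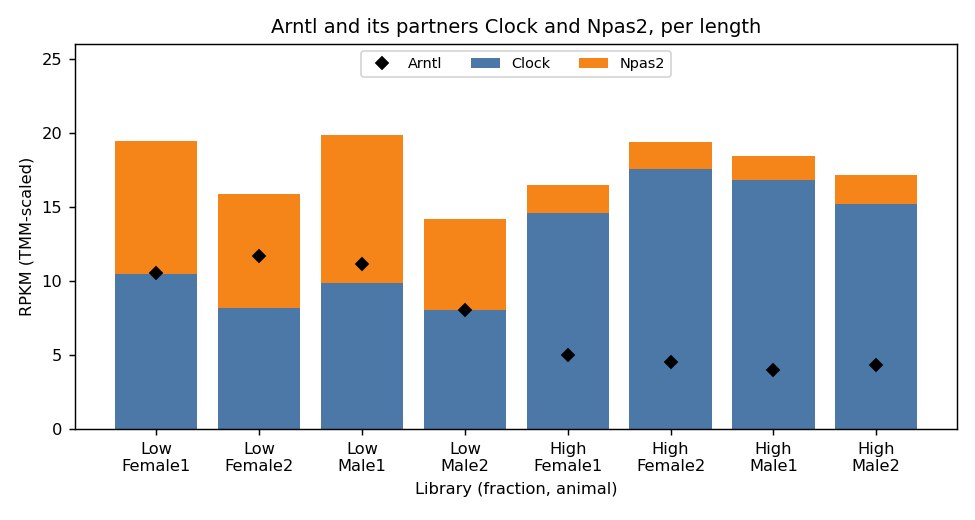
Bars show Clock (blue) and Npas2 (orange) in RPKM, stacked, and diamonds show Arntl in RPKM, for each of the 8 libraries. The stacked height is 17.3 ± 2.7 RPKM in Low and 17.9 ± 1.3 in High (SD, n = 4 each), under TMM scaling and 21.1 ± 3.4 and 14.8 ± 2.2 by total counts only (not drawn); the Npas2 part is 43.3 to 50.4% in Low and 8.80 to 11.8% in High.

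Per length, Nr1d1 had the highest mean of the members in both fractions, 60.3 ± 43.8 RPKM in Low and 79.9 ± 68.5 RPKM in High (SD, n = 4 each). In the Low libraries of Female1 and Male1 Per1 was higher than Nr1d1, at 29.7 against 18.6 RPKM and 40.8 against 26.6 RPKM. By the means in Low, Nr1d1 was followed by Per1 (28.1 RPKM), Nr1d2 (17.3), Arntl (10.4), Clock (9.13), Npas2 (8.21), Cry1 (5.27), Cry2 (2.55), Per2 (1.59) and Per3 (0.990). Each neighbouring pair in that order overlapped in its range over the 4 Low libraries. In High the order was Nr1d1, Per1, Clock (16.0 RPKM), Nr1d2 (9.66), Cry1 (5.93), Arntl (4.49), Cry2 (3.62), Per3 (1.95), Npas2 (1.84) and Per2 (0.999). There the only neighbours whose ranges did not overlap were Per1 above Clock and Clock above Nr1d2.

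The next members are the repressors of Arntl, Nr1d1 and Nr1d2. Nr1d1 (chromosome 11, 98767932 to 98775333, minus strand) was at 57.3, 285, 81.8 and 318 CPM in the Low libraries of Female1, Female2, Male1 and Male2. It was at 74.1, 303, 86.3 and 520 CPM in their High libraries. Female2 and Male2 were high and Female1 and Male1 low in both fractions, and the lower of the high libraries exceeded the higher of the low ones by 3.48-fold in Low and 3.52-fold in High. Within each animal High exceeded Low, by 0.08 (Male1) to 0.71 (Male2) log2 units. The fitted log2 fold change of 0.37 had an SE of 0.71, and an SE of 0.15 around 0.31 with the animal as a block. It was −0.31 under total-count scaling and −0.36 without the High library of Male2. It was also below 0 without Low Male1 (−0.01) or without High Female2 (−0.06).

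Exons of Nr1d1 and of the thyroid hormone receptor gene Thra overlap on opposite strands, over 263 bases or 8.55% of the exon length of Nr1d1. Whether the counting used the strand is not given, so reads of the 2 genes in that stretch are uncertain. Thra had 462 to 2449 counts and Nr1d1 1855 to 10525. Thra was lower in High than in Low in all 4 animals, at 42.6 to 67.3 CPM in Low and 17.8 to 40.2 CPM in High, unlike Nr1d1. Between animals Thra went the same way as Nr1d1, with 67.3 and 60.2 CPM in Low and 27.0 and 40.2 CPM in High for Female2 and Male2, above 42.6 and 51.3 CPM and 17.8 and 18.8 CPM for Female1 and Male1.

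Nr1d2 (chromosome 14, 18204054 to 18239127, minus strand) was, like Nr1d1, higher in Female2 and Male2 than in Female1 and Male1 in both fractions, but was lower in High. It stood at 62.9, 97.6, 71.3 and 142 CPM in the Low libraries of Female1, Female2, Male1 and Male2, and at 36.3, 68.4, 33.9 and 70.3 CPM in High. All 4 animals had less Nr1d2 in High, by 0.51 to 1.07 log2 units, and the fitted change was −0.83 (SE 0.32; −0.85 and SE 0.13 with the animal as a block). The fractions overlapped because the High libraries of Female2 and Male2 lay within the range of the Low libraries. Under total-count scaling the change was −1.44.

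**Figure D2:**
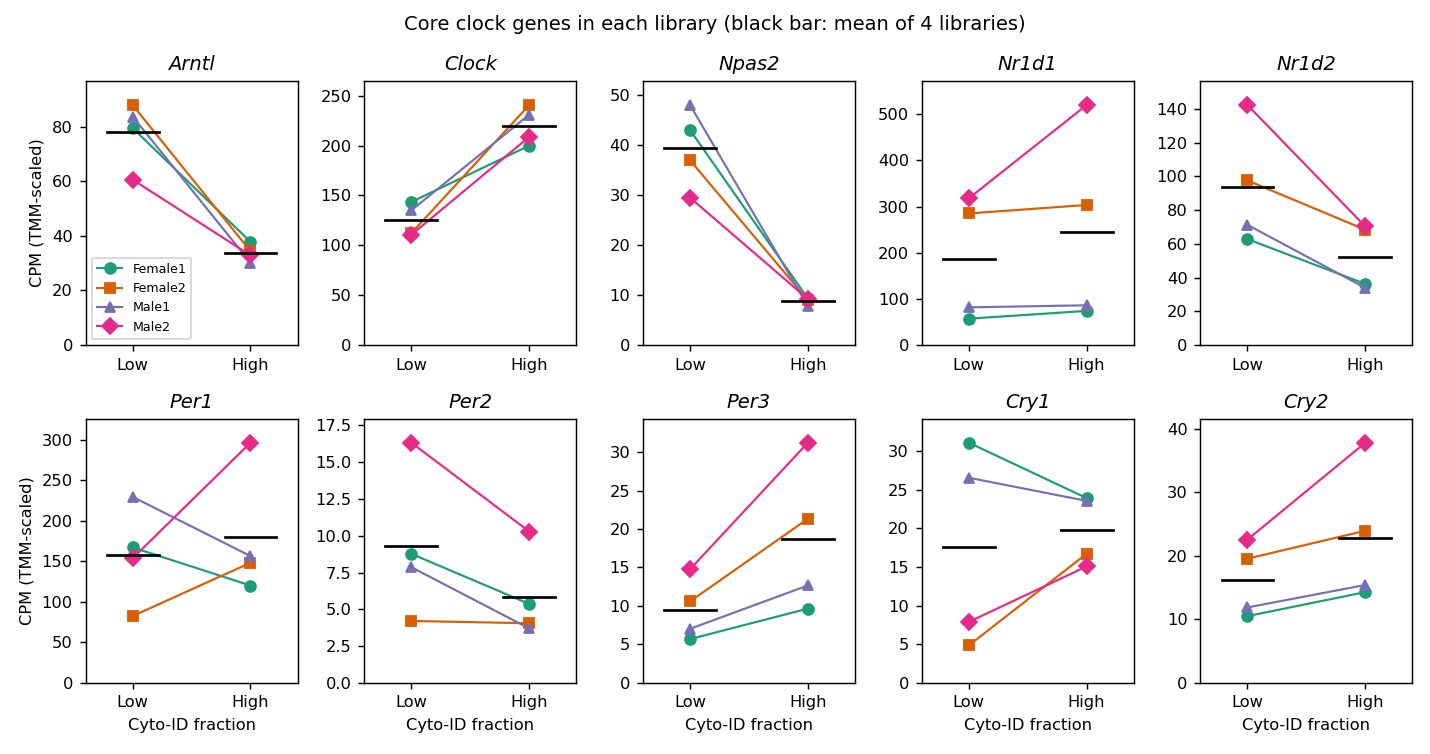
Each panel shows 1 gene in TMM-scaled CPM (linear axis from 0) in the Low and High library of each animal, joined by a line, with a black bar at the mean of 4 libraries. Arntl, Npas2 and Clock separate by fraction, while in Nr1d1, Nr1d2, Per3 and Cry2 the lines of Female2 and Male2 run above those of Female1 and Male1. Under total-count scaling (not drawn) the fractions overlap in Clock, and the fitted change of Nr1d1, Per1, Cry1 and Cry2 turns negative.

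The 3 Per genes, which encode the period repressors, did not share a direction. Per3 (chromosome 4, 151003652 to 151044665, minus strand) was at 5.68, 10.6, 7.02 and 14.8 CPM in the Low libraries of Female1, Female2, Male1 and Male2, and at 9.65, 21.3, 12.7 and 31.2 CPM in High. Every animal had more Per3 in High, by 0.76 to 1.08 log2 units, although the fractions overlapped. The fitted change was 0.97 with an SE of 0.38, which was 0.93 with an SE of 0.11 once the animal was a block. It was 0.65 without the High library of Male2 and 0.34 under total-count scaling.

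Per2 (chromosome 1, 91415982 to 91459324, minus strand) was lower in High in all 4 animals, by 0.05 (Female2) to 1.07 (Male1) log2 units. It was the least abundant member in High per length and rested on 93 to 541 counts per library, at 4.21 to 16.3 CPM in Low and 3.70 to 10.3 CPM in High. Its fitted change was −0.63 (SE 0.37), −1.22 under total-count scaling and −0.32 without the Low library of Male2. Male2 had the most Per2 in both fractions and Female2 the least in Low.

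Per1 (chromosome 11, 69095217 to 69109960, plus strand), the Per gene that also responds acutely to glucocorticoid and cAMP signals, had 167, 82.5, 230 and 154 CPM in the Low libraries of Female1, Female2, Male1 and Male2. It had 120, 148, 157 and 297 CPM in High. High was below Low in Female1 and Male1, by 0.48 and 0.55 log2 units, and above it in Female2 and Male2, by 0.85 and 0.95. The fitted change of 0.17 (SE 0.27) averages these opposite directions, and was −0.42 under total-count scaling and −0.05 without the High library of Male2. Per1 made up 86.3 to 95.2% of the summed Per transcripts per length in every library.

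The cryptochromes, which bind and block the activators, did not share a pattern either: the sign of the difference varied between animals for Cry1 and not for Cry2. Cry1 (chromosome 10, 85131700 to 85185064, minus strand) was at 31.1, 4.84, 26.6 and 7.88 CPM in the Low libraries of Female1, Female2, Male1 and Male2, and at 23.9, 16.7, 23.6 and 15.1 CPM in High. The 2 Low libraries of Female2 and Male2 lay below all other libraries. Cry1 was lower in High in Female1 and Male1, by 0.38 and 0.17 log2 units, and higher in Female2 and Male2, by 1.77 and 0.93. The fitted change was 0.17 (SE 0.52; 0.50 and SE 0.34 with the animal as a block). It was −0.34 under total-count scaling, −0.12 or −0.03 without the Low library of Female2 or Male2, and 0.84 or 0.63 without that of Female1 or Male1.

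Cry2 (chromosome 2, 92403646 to 92434043, minus strand) was higher in High in all 4 animals, by 0.29 to 0.74 log2 units, at 10.5 to 22.5 CPM in Low and 14.3 to 37.8 CPM in High. Its fitted change was 0.49 (SE 0.34; 0.47 and SE 0.12 with the animal as a block), −0.13 under total-count scaling and 0.15 without the High library of Male2. Cry1 exceeded Cry2 per length by 5.60-fold in Low Female1 and 4.24-fold in Low Male1, whereas in Low Female2 and Low Male2 the ratio was 0.468 and 0.661. In High it was 3.17 and 2.89 for Female1 and Male1, and 1.32 and 0.754 for Female2 and Male2, so that the order of the animals numbered 1 and 2 was kept with a smaller gap.

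**Figure D3:**
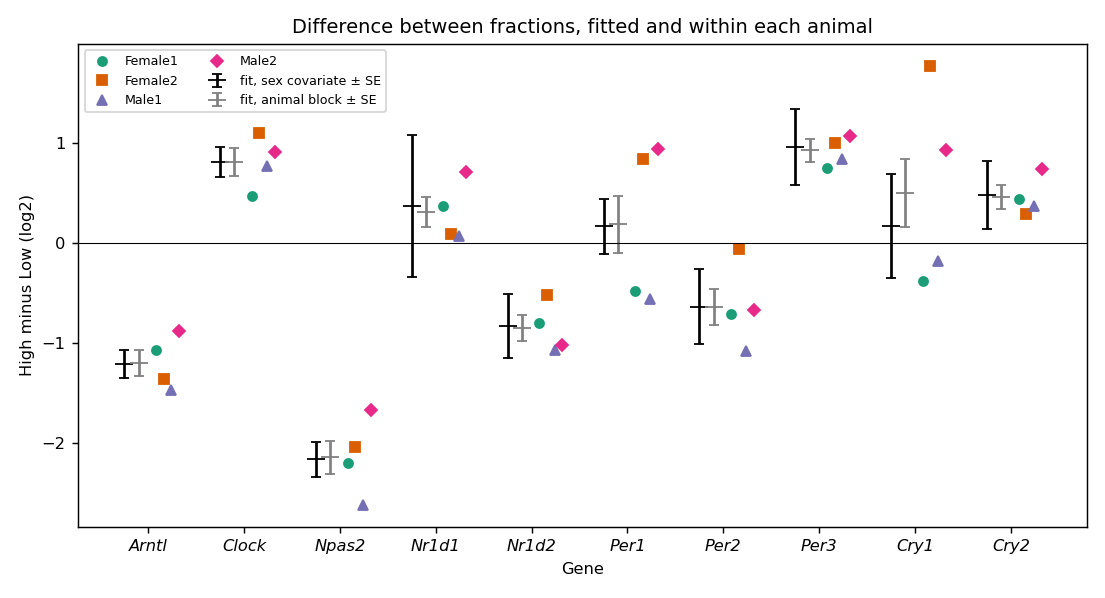
For each gene the High minus Low difference is shown on a log2 axis, as the fitted change with sex as a covariate (black, ± SE), with the animal as a block (grey, ± SE), and within each of the 4 animals (coloured symbols, log2 CPM). Arntl, Npas2, Nr1d2 and Per2 are below 0 and Clock, Nr1d1, Per3 and Cry2 above 0 in every animal, while Per1 and Cry1 are below 0 in Female1 and Male1 and above 0 in Female2 and Male2; total-count scaling turns the fitted values of Nr1d1, Per1, Cry1 and Cry2 negative.

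Differences between animals were not used to choose the members, and were tested across all genes with the fraction in the model. The question was whether clock genes differed between animals in both fractions alike. By edgeR's quasi-likelihood F test of the 3 animal terms, 6 of 17344 genes passed a Benjamini-Hochberg adjusted p of 0.05 (0.0346%), and Nr1d1 was 1 of them (F 73.0, adjusted p 0.0219, rank 5). Of the others Kdm5d, Ddx3y, Xist and Uty are sex-linked, and Gm10800 is a predicted gene. Averaged over both fractions, Nr1d1 had 65.7 CPM in Female1, 84.0 in Male1, 294 in Female2 and 419 in Male2, a 6.37-fold range.

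The edgeR adjusted p of the animal test was 0.0760 for Per3 (rank 17), 0.0896 for Cry2 (rank 52), 0.134 for Nr1d2 (rank 122), 0.139 for Per2 (rank 142) and 0.270 for Cry1, so that these did not pass. With at least 10 counts in every library Per3 passed (edgeR adjusted p 0.0463), in a setting where 19 genes passed in all. Without a filter all 5 did (edgeR adjusted p 9.52e-05 to 0.00633), in a setting where 943 genes passed in all. At an unadjusted p under 0.05 there were 6 members, Nr1d1 and these 5, against 15.9% of all genes. Arntl, Clock, Npas2 and Per1 had an adjusted p of 0.460 to 0.851, and the activators kept within a 1.15-fold (Clock) to 1.44-fold (Npas2) range of animal means. The same 6 members passed under DESeq2, where 15% of the genes did. The call of Nr1d1 was lost in several settings: its adjusted p was 0.0641 under total-count scaling, and between 0.0696 and 0.192 when the Low or the High library of Female1, Female2 or Male1 was left out (0.186, 0.192 and 0.163 without Low, 0.133, 0.147 and 0.0696 without High). It passed without either library of Male2.

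The animals with the number 2 in their names, Female2 and Male2, thus formed 1 side and those with the number 1 the other. This grouping was noticed in the values and not tested. Some cell type markers split in the same way. Suprabasal markers summed to 20970 and 27476 CPM in the Low libraries of Female2 and Male2 against 14788 and 10066 CPM in Female1 and Male1, and in High to 190658 and 250273 CPM against 149302 and 148356 CPM. In High the leukocyte, fibroblast, endothelial and muscle sums given above were lower in both animals numbered 2. In Low the leukocyte, fibroblast and endothelial sums, and in both fractions the basal sums, did not split by number, whereas the muscle sum in Low was again lower in Female2 and Male2 (45.0 and 46.7 CPM) than in Female1 and Male1 (70.3 and 50.6 CPM). The part of these markers in the grouping was not tested. Nr1d1, Nr1d2, Per3 and Cry2 were higher in both animals numbered 2 than in both numbered 1 in each fraction, 4 of 10 members against 15.5% of all genes tested. Cry1 alone was lower in both in each fraction, against 8.49% of all genes. The ratio of the means of the animals numbered 2 to those numbered 1 was 4.33 in Low and 5.13 in High for Nr1d1, 2.00 and 2.36 for Per3, 1.88 and 2.08 for Cry2, 1.79 and 1.98 for Nr1d2, and 0.221 and 0.669 for Cry1. For Arntl it was 0.910 and 0.990, for Npas2 0.730 and 1.06, for Clock 0.800 and 1.04, for Per1 0.595 and 1.61, and for Per2 1.23 and 1.58. Npas2, Clock and Per1 were lower in both animals numbered 2 than in both numbered 1 in Low, but did not split by number in High.

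**Figure D4:**
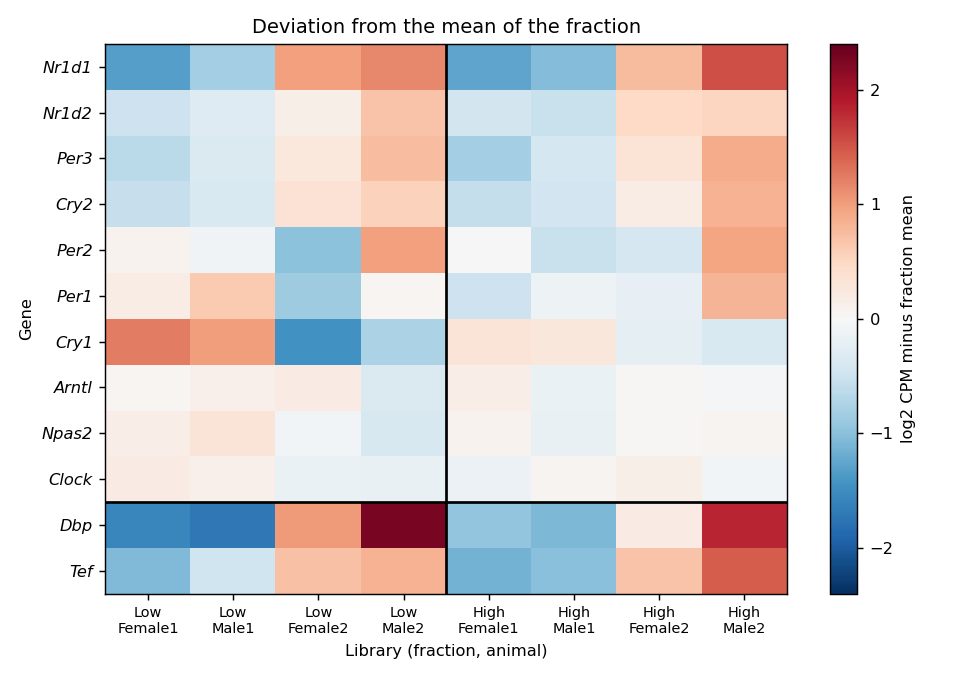
Colours show log2 CPM minus the mean of the 4 libraries of the same fraction (colour bar, log2 units) for the 10 members and, below the line, Dbp and Tef; libraries are ordered by fraction and then by the number in the animal's name. Nr1d1, Nr1d2, Per3, Cry2, Dbp and Tef are above the mean in Female2 and Male2 of both fractions and Cry1 is below it. Arntl, Npas2 and Clock vary less than the other members (log2 SD 0.19 to 0.30 in Low and 0.12 to 0.14 in High). In Low, Npas2 and Clock are also below the mean in Female2 and Male2.

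Dbp and Tef, output factors of the clock that bind D-box sequences, were higher in Female2 and Male2 in both fractions. Dbp was at 2.66, 15.9, 2.39 and 38.3 CPM in the Low libraries of Female1, Female2, Male1 and Male2 and at 2.51, 5.57, 2.29 and 17.3 CPM in High, with an edgeR adjusted p of 0.0621 between animals. Tef was at 32.7, 112, 48.9 and 123 CPM in Low and at 16.4, 58.0, 17.8 and 98.2 CPM in High, with an edgeR adjusted p of 0.0760. Of the other 2 genes of their list, Nfil3 was lower in Female2 and Male2 in both fractions, at 39.4 and 37.9 CPM against 61.8 and 67.8 CPM in Low and 31.3 and 28.9 CPM against 34.3 and 33.6 CPM in High, and Hlf showed no such split in Low. Of the 61 other clock genes tested none passed the adjusted threshold between animals, and 11 had an unadjusted p under 0.05, beside 15.9% of all genes. Exons of Dbp overlap those of Sphk2 on the other strand over 18% of their length, and Sphk2 was higher in High (77.7 to 167 CPM) than in Low (37.9 to 54.96 CPM), and in each fraction higher in Female2 and Male2 than in Female1 and Male1.

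Promoter windows of members are shown where they held a match to a sequence element of the loop. RefSeq start sites gave windows of 250 bases before the start for 9 of the 10 members, on GRCm38.p6. Searched on both strands were the E-box CACGTG and its variant CACGTT, both read by the activators, the D-box TTATGTAA or TTACGTAA, read by Dbp and Tef, and the core of the ROR element TAGGTCA or TGGGTCA. Among 32851 promoter windows of that length 6.02% held the E-box, 3.85% its variant, 0.931% the D-box and 5.38% the ROR core. The sequences run from 5′ to 3′ along the gene and leave out bases of annotated exons, with motif matches in capitals.
Nr1d1 (chr11:98775378-98775627, minus strand): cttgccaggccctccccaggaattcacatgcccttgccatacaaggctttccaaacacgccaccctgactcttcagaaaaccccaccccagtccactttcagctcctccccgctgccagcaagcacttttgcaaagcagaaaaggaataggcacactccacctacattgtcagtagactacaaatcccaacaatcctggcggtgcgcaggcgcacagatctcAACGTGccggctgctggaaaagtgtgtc
Per3 (chr4:151044666-151044915, minus strand): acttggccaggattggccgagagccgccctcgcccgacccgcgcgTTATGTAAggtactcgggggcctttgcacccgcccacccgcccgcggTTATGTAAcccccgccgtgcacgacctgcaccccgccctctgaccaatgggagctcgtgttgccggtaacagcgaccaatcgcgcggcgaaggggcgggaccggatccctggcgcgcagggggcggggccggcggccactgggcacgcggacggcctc
Cry2 (chr2:92434070-92434319, minus strand): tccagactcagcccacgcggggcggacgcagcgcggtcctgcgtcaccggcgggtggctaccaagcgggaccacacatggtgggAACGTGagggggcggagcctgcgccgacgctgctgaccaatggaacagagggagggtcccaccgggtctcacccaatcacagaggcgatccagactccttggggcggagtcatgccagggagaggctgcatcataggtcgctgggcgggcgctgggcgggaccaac
Cry1 (chr10:85185065-85185304, minus strand): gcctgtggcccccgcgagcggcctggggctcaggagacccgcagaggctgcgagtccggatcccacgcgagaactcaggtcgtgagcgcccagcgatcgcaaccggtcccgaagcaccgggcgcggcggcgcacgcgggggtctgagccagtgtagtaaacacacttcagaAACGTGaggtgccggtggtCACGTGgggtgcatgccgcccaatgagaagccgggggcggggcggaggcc
Per1 (chr11:69098699-69098947, plus strand): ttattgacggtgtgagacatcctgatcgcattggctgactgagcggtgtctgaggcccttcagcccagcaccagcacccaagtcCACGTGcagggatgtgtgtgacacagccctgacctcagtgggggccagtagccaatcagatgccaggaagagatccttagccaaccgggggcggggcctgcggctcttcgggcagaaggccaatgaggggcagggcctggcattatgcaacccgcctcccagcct
The window of Per3 held 2 copies of the D-box, beginning 205 and 158 bases before the start. Cry1 held the E-box 60 bases and the variant, on the other strand, 79 bases before it. Nr1d1 and Cry2 each held the variant on the other strand, 28 and 166 bases before the start, and Per1 held an E-box 166 bases before the start shown. That RefSeq start of Per1 lies inside the span of the gene given above, and a second window of Per1 (chromosome 11, 69099902 to 69100151) held none of the letters searched. The windows of Arntl, Clock, Npas2 and Nr1d2 held none of these letters, which says nothing of sites outside them. A match describes the letters only, and no binding was measured.

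No member passed a test on sex. With the 2 fractions of each animal added together, 4 of 19687 genes differed between 2 male and 2 female animals (0.0203%, quasi-likelihood F test of edgeR at an adjusted p of 0.05), and none was a member. Per1 had the smallest unadjusted p of the members, at 0.0151, with a male minus female log2 fold change of 0.63 (SE 0.21) and an edgeR adjusted p of 1.00. In the interaction of sex and fraction 0 of 17344 genes passed (0%, 19 at an unadjusted p under 0.05; 0 under DESeq2), and no member had an unadjusted p under 0.05. The interaction of Arntl was 0.02 (SE 0.31) and that of Nr1d1 0.46 (SE 1.501). This fit had no term for the animal, so the SE of Nr1d1 includes its spread between animals. Within animals the High minus Low difference of Nr1d1 was 0.37 (Female1), 0.09 (Female2), 0.08 (Male1) and 0.71 (Male2) log2 units.

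The rest of the pathway was read from 65 further clock genes, of which 61 were tested between High and Low. Of these 15 were higher and 17 lower (edgeR adjusted p under 0.05), beside 23.4% and 25.3% of all genes tested, and the median log2 fold change was 0.04 beside −0.09 for all genes. Under total-count scaling 7 were higher and 31 lower. The share that passed was thus near that of all genes, and the split by direction depended on the scaling. With the animal as a block 36 passed in place of 32. Unless stated, levels are means ± SD of 4 libraries and fitted log2 fold changes.

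Rora encodes a ROR activator, which competes with the NR1D proteins at the Arntl promoter. Rora, with 90.7 ± 15.1 and 122 ± 18 CPM, did not pass (log2 fold change 0.43, edgeR adjusted p 0.0642), and under total-count scaling its sign was negative. It passed with RLE factors (edgeR adjusted p 0.0342), at least 10 counts in every library (0.0414), no covariate (0.0476), DESeq2 (0.0168) or without the Low library of Male2 (0.0188). Rorb had at most 6 counts in a library and was not tested.

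Of 6 other factors of the negative loop 1 was higher and 2 lower. Cipc, which encodes an inhibitor of CLOCK, rose from 16.7 ± 4.0 to 59.4 ± 15.2 CPM (log2 1.83, SE 0.24, edgeR adjusted p 0.000174). Bhlhe41, an E-box repressor, fell from 6.78 ± 2.15 to 2.48 ± 0.29 CPM (−1.44, SE 0.23, edgeR adjusted p 0.000588). Timeless, whose protein in mammals also acts at replication forks, fell from 15.0 ± 6.0 to 2.71 ± 1.65 CPM (−2.47, SE 0.43, edgeR adjusted p 0.00103). Ciart, a repressor under strong clock control, was at 0.435 to 1.02 CPM in Low and 0.801 to 4.48 CPM in High, with a change of 1.47 and an edgeR adjusted p of 0.0511 (0.0311 with the animal as a block). Its adjusted p was 0.0446 with RLE factors, 0.00163 without a filter, 0.0325 with at least 10 counts in every library, 0.0332 without a covariate and 0.0167 under DESeq2, and 0.0484, 0.0489 and 0.0199 without Low Female1, High Female1 or High Male1. Without the High library of Male2 its change was 0.68. Bhlhe40 and Arntl2 had adjusted p of 0.909 and 0.984. About 19% of the exon length of Bhlhe41 overlaps the annotated Gm43909 on the other strand.

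Among 12 kinases and phosphatases of the clock proteins 7 were higher and 1 lower, which became 1 higher and 4 lower under total-count scaling. Csnk2b, the regulatory subunit of casein kinase 2, rose from 82.3 ± 12.3 to 273 ± 76 CPM (log2 fold change 1.73, SE 0.21, edgeR adjusted p 0.000132). Csnk1e, a casein kinase that marks PER for decay, fell from 66.2 ± 9.6 to 27.9 ± 7.1 CPM (−1.26, SE 0.16, edgeR adjusted p 0.000169), whereas its paralogue Csnk1d was at 177 ± 19 and 201 ± 43 CPM and did not pass (0.18, edgeR adjusted p 0.413). Under total-count scaling Csnk1d was lower (−0.40, edgeR adjusted p 0.0111).

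Of 8 ubiquitin enzymes tested that act on PER, CRY and NR1D proteins 2 were higher and 2 lower, which was 1 and 3 under total-count scaling and 4 and 1 with RLE factors. Siah2, a ligase of NR1D1, rose from 25.7 ± 5.6 to 53.4 ± 12.1 CPM (1.06, SE 0.19, edgeR adjusted p 0.00122), and Btrc, a ligase of PER, fell from 13.0 ± 1.7 to 6.67 ± 1.67 CPM (−0.97, SE 0.21, edgeR adjusted p 0.00364). Of 12 chromatin partners 3 were lower and 0 higher, and 8 were lower and 0 higher under total-count scaling. Ncor1 and Hdac3, the corepressor and deacetylase of the NR1D proteins, had adjusted p of 0.899 and 0.861.

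Of the 4 output factors that read the D-box 2 were lower and 0 higher. Hlf fell from 21.2 ± 4.4 to 3.76 ± 0.67 CPM (−2.50, SE 0.22, edgeR adjusted p 2.16e-05). Nfil3, the antagonist at D-boxes, fell from 51.7 ± 15.3 to 32.0 ± 2.5 CPM (−0.69, SE 0.21, edgeR adjusted p 0.0204), but had an adjusted p of 0.0544 to 0.0654 without Low Female1, Low Male1 or High Female2. Dbp and Tef did not pass with sex as the covariate (−1.13 and −0.76, edgeR adjusted p 0.315 and 0.336), and passed with the animal as a block (edgeR adjusted p 0.0374 and 0.00327) or without a filter on low counts (9.27e-07 and 9.72e-05). With sex as the covariate, the log2 fold change of Dbp was −0.17 without Low Male2 and −1.90 without High Male2, and that of Tef −0.32 without Low Female2 and −1.44 without High Male2.

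Among 9 clock-controlled outputs tested 3 were higher and 3 lower, and 3 and 6 under total-count scaling. Wee1, a mitotic kinase gene with E-boxes, fell from 119 ± 44 to 16.0 ± 6.5 CPM (−2.87, SE 0.29, edgeR adjusted p 4.35e-05), and the cell-cycle inhibitor Cdkn1a rose from 287 ± 90 to 1247 ± 346 CPM (2.12, SE 0.26, edgeR adjusted p 0.000115). Of 8 genes of glucocorticoid and cAMP resetting 1 was higher and 4 lower. The glucocorticoid receptor gene Nr3c1 fell from 78.9 ± 8.3 to 32.5 ± 4.2 CPM (−1.28, SE 0.14, edgeR adjusted p 6.14e-05) and its target Klf9 from 326 ± 74 to 115 ± 33 CPM (−1.49, SE 0.22, edgeR adjusted p 0.000398). Fkbp5, another target of the receptor, rose from 10.3 ± 1.3 to 34.5 ± 6.4 CPM (1.75, SE 0.18, edgeR adjusted p 4.42e-05).

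**Figure D5:**
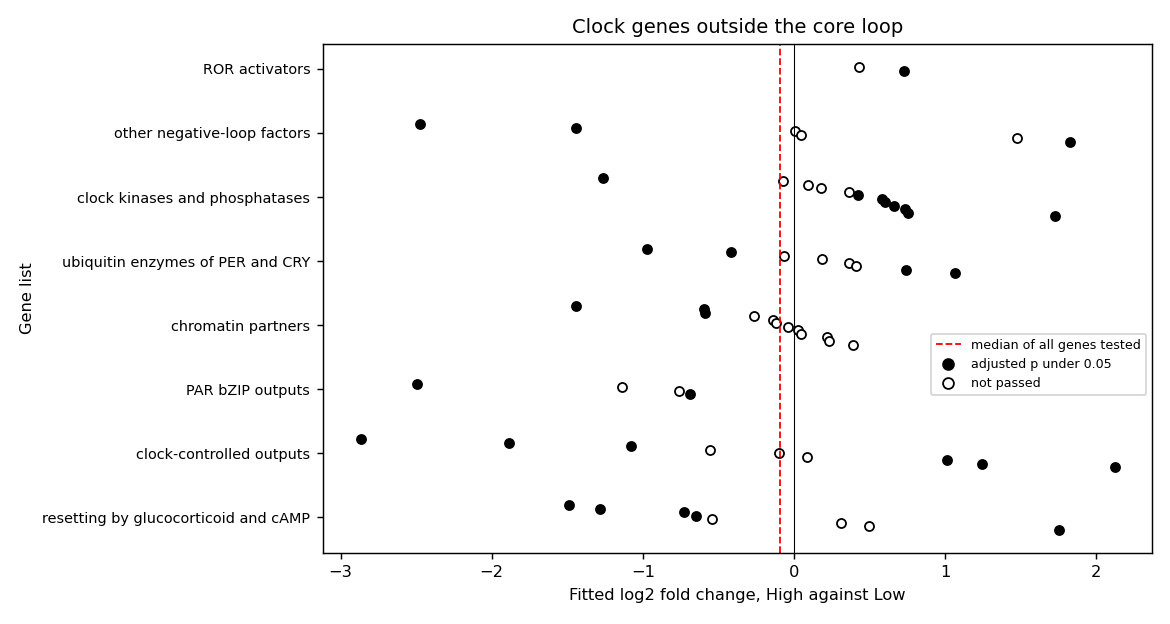
Each point is 1 of the 61 tested clock genes outside the core loop, at its fitted log2 fold change of High against Low, by list. Filled points passed an edgeR adjusted p of 0.05 (15 higher, 17 lower; 7 and 31 under total-count scaling), open points did not, and the dashed line is the median of all genes tested, −0.09.

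The genes most like the 4 members named at the outset were found by Pearson's r of log2 CPM over the 8 libraries, which share 4 animals and 2 fractions, among 10006 genes with a mean of at least 5 CPM. Those most like Npas2 were Psrc1, Gpsm2 and Pck2 (r 0.998, 0.997 and 0.997), and those most like Arntl were Tcf19, Nin and Zfp629 (r 0.993, 0.992 and 0.990). For Clock they were Fancb, Ccdc186 and Srpk1 (r 0.994, 0.994 and 0.992). For Per3 they were Pccb, Cdc42se1 and Calcoco1 (r 0.992, 0.990 and 0.989).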

How the data were processed

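Bulk RNA was sequenced from sorted Cyto-ID Low and High cells of 4 mice. Per gene symbol, raw counts were deposited by the authors in 1 table; that these are counts follows from the values, whole numbers with another total in each library. STAR 2.7.3, DESeq2 and the build GRCm38 are named in the submitters' processing notes, without their roles. Annotation, counting tool and strandedness are not given in the sources used here.

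Each of the 8 columns names its animal and Cyto-ID Negative or Positive. Through the sample titles, Negative was matched to the samples labelled Cyto-ID Low and Positive to those labelled Cyto-ID High. The fits used edgeR 4.0.16 in R 4.3.3: filterByExpr, TMM scaling (trimmed mean of M values), glmQLFit and glmQLFTest, two-sided, Benjamini-Hochberg adjustment over all genes tested, threshold 0.05. High was tested against Low with sex as a covariate. Animals were tested as 3 terms beside the fraction, sex as an interaction and on counts summed per animal. SEs were derived from the fold change and F. CPM are TMM-scaled, log2 CPM have a prior count of 2, and RPKM divide CPM by the union exon length of GENCODE M21 (GRCm38), which may differ from the authors' annotation. Fits were tested on simulated data.

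Libraries of 1 animal were taken as pairs, since 1 suspension was sorted into both. The correlation of their deviations from the fraction means, across genes, was 0.43 (Female1), 0.32 (Female2), −0.02 (Male1) and 0.28 (Male2), and between libraries of different animals −0.37 to 0.35. No 2 libraries of a fraction agreed within sampling noise (chi-square per degree of freedom at least 19.8).

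The members, the lists and the tests were chosen with earlier results of these data known. Named were the 10 members, genes of the other clock lists (those past the threshold or with a role in the loop first), and for Npas2, Arntl, Clock and Per3 the 3 genes of highest r, without predicted genes (Gm numbers or a Rik ending). Alternatives were RLE factors, total counts only, no filter, at least 10 counts in every library, DESeq2 1.42.0, no covariate, the animal as a block and each library left out. Leukocyte, fibroblast, endothelial, muscle, gastric, basal and suprabasal marker lists were measured too.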

Additional observations from a re-analysis of the deposited data

Results flagged for a closer look

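For 2 members the High minus Low difference had 1 sign in both animals numbered 1 and the opposite sign in both animals numbered 2. For Cry1 it averaged −0.27 log2 CPM in Female1 and Male1 and 1.35 in Female2 and Male2. For Per1 it averaged −0.52 and 0.90. This difference was not tested. The same opposition of signs was seen in 11.6% of all genes tested. In 20 groups of 4 libraries (10 members in 2 fractions) Dixon's gap ratio singled out no library.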

How the results depend on the processing

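Of 70 values of the members' log2 fold change under alternatives that kept all libraries, 60 kept their sign and stayed within 1 SD of the animals' differences. The other 10 came from total-count scaling, which turned 4 signs: Nr1d1 (−0.31), Per1 (−0.42), Cry1 (−0.34) and Cry2 (−0.13). With each library left out, the log2 fold change ran from −0.36 to 0.98 for Nr1d1, from −0.0503 to 0.38 for Per1 and from −0.12 to 0.84 for Cry1, and the other members kept their sign. The number of genes differing between High and Low ran from 8066 to 10708, and with a library left out from 7269 to 8106; a replicate block for the animal gave 9336, and of the genes named this changed only the calls of Ciart, Dbp and Tef. Total-count scaling gave 2194 higher and 8514 lower genes in place of 4055 and 4385, and reversed Csnk1d (−0.40). The number of other clock genes that passed was 29 to 38 over all settings. The test between animals moved most. It passed 6 genes, but 1 under total counts, 943 without a filter, 19 with at least 10 counts in every library, 2051 under DESeq2, and 0 to 16 with a library left out. The test of male against female animals passed 4 genes, 15 without a filter, 9 under DESeq2, 1 in the Low and 0 in the High libraries alone, and 6 to 48 with an animal left out. The interaction with sex passed 0 genes in every setting run, the replicate block included. The lowest counts, 93 for Per2, still allowed each member to be measured in every library.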
